A study of Mus musculus with 36 samples.

Results

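The genes described here are Trp53, which encodes the transcription factor p53, and 9 genes known as its targets. They are Mdm2, Ccng1, Sesn1, Zmat3, Trp53inp1, Phlda3, Aen, Perp and Btg2. They were chosen by symbol, and 8 of the 10 had a row in the table of 12762 genes. Phlda3 and Perp were not in that table under their symbol or Ensembl identifier and are not analysed here.

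Messenger RNA was sequenced from B3, a mouse pre-B cell line, in 36 libraries, with 3 libraries for each of 2 lines at 0, 2, 6, 12, 18 and 24 h. The Ikaros line carries an MSCV retroviral vector that encodes HA-tagged Ikaros fused to the estrogen receptor domain ERt2, followed by IRES and GFP, so that 4-hydroxy-tamoxifen (4-OHT) brings the fusion protein into the nucleus. Control cells carry a vector with ERt2 and without Ikaros. On the labels all libraries, also those of 0 h, carry a dose of 0.5 uM 4-OHT. By the study's methods, cells of 0 h had received no drug and were collected separately, so a comparison with 0 h also compares occasions. By the methods, cultures of one batch were harvested together. The labels give batches 1, 2 and 4 at 0 h and batches 1, 3 and 4 later. Since cells of 0 h were collected separately, a shared number need not join them to later cultures. By the methods, infected cells were sorted for GFP and the positive cells expanded in culture, with no step of cloning described. Whether the p53 gene is intact in B3 is not given in the sources used here.

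Values are log2 expression as deposited, after correction for GC content, gene length and library preparation, and every fold given here rests on base 2. A gene was called in a comparison when its Benjamini-Hochberg adjusted p over all 12762 genes in limma was under 0.05. These values do not show how deeply a library was sequenced. Ikzf1, the gene that encodes Ikaros, was higher in the Ikaros line at all 6 times by 5.19 to 6.26 on the log2 scale, with no overlap between libraries, and reads from the vector and from the cell's own gene are not separated. All 12 pre-B markers that were looked up were in the table, 8 of them above the median gene. Of the markers of other cells, 0 of 6 for T cells, 0 of 3 for plasma cells and 0 of 4 for fibroblasts were, and the 2 of 6 for myeloid cells and 1 of 5 for erythroid cells that were had at most 7.59% of the genes below them. At 24 h the myeloid marker Itgam was 4.24 higher in Ikaros cells and Lyz2 stood at -2.94 (limma, adjusted p 1.39e-07 and 4.96e-05), in opposite directions, and their part in the members' differences was not tested. In bulk samples, fewer cells of a type and less RNA per cell cannot be told apart.

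p53 is held at a low protein level in unstressed cells, mainly because Mdm2, itself a p53 target, marks it for destruction. Damage to DNA and other stresses stabilise the protein, which then binds paired copies of a short palindromic half-site and switches on genes of cell cycle arrest, cell death, repair and metabolism. In B cell precursors, which cut and rejoin their immunoglobulin genes, the pathway is known as a guard against unrepaired breaks. Many of its targets are also driven by other factors, and RNA levels do not measure p53 protein or its activity.

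The p53 half-site was looked up in the promoter windows of RefSeq on GRCm38.p6, which reach from 250 bases before to 50 bases after a gene start. 7 of the 10 genes had 9 windows among them, and Zmat3, Trp53inp1 and Perp had no entry. The 10-base half-site reads as its own reverse complement, so one search covers both strands. It was present in 6 of the 9 windows, those of Aen, Ccng1, Mdm2, Sesn1 and Trp53, against 8.36% of all 32851 windows. The Aen windows overlap and share a single match, so 5 of the 7 genes held it. A full site, defined as a pair of half-sites at most 13 bases apart, was in none of the 9 windows and in 0.0731% of all. These 5 stretches of 30 bases are shown because they hold the matches, with the half-site in capitals and each written 5′ to 3′ on the strand of its gene:
Trp53, chr11:69580274-69580303, forward strand: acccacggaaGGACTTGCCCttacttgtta
Mdm2, chr10:117710925-117710954, reverse strand: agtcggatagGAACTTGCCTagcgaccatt
Ccng1, chr11:40755452-40755481, reverse strand: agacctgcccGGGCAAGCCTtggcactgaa
Aen, chr7:78895927-78895956, forward strand: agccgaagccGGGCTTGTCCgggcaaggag
Sesn1, chr10:41887256-41887285, forward strand: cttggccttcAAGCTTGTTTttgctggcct

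In the annotation the Trp53, Mdm2 and Ccng1 stretches lie outside any gene, and their half-sites begin 75, 186 and 185 bases before the start. The Sesn1 stretch lies in an intron of Sesn1, and its half-site begins 173 bases before the second Sesn1 start. That of Aen lies in an untranslated part of an Aen exon. Its half-site begins 121 bases before one start and 10 bases after the other. The sequence TGGGAA, a core of sites that Ikaros binds, was found on either strand in 4 of the 9 windows, those of Btg2, Aen and Sesn1, against 25.6% of all windows, and none of these matches overlapped a half-site. A match in sequence is a description and shows neither binding nor use.

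Trp53 itself (ENSMUSG00000059552; GRCm38 chromosome 11, 69580359 to 69591873, forward strand) fell in Ikaros cells between 2 and 6 h and remained lower. Control cells held values of 15.14, 15.14 and 15.36 at 6 h and of 15.15, 15.20 and 15.25 at 24 h. Ikaros cells held 14.91, 14.98 and 15.25 at 2 h, then 14.35, 14.42 and 14.34 at 6 h and 14.14, 14.40 and 14.29 at 24 h. The lines overlapped at 0 and 2 h, and from 6 h on every Ikaros library lay below every control library. The Ikaros minus control difference was -0.04 at 0 h and -0.09 at 2 h, then -0.84, -0.66, -0.94 and -0.93 at 6, 12, 18 and 24 h (limma, SE 0.10, adjusted p 2.56e-07, 4.71e-06, 8.04e-09 and 7.31e-09). Within batches the difference at 24 h ranged from -1.0 to -0.81. Thus Trp53 RNA stood 1.90-fold lower in Ikaros cells at 24 h, and 62.4% of all genes differed by less in size.

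Mdm2 and Ccng1 act back on p53. Mdm2 (ENSMUSG00000020184; chromosome 10, 117688875 to 117710758, reverse strand) encodes the ubiquitin ligase that marks p53 for destruction, and it was higher in Ikaros cells at 24 h, when Trp53 was lower. At 24 h control libraries stood at 12.68, 12.66 and 12.89 and Ikaros libraries at 13.33, 13.39 and 13.49, without overlap. The difference of 0.66, or 1.58-fold, was called (limma, SE 0.16, adjusted p 0.00088). The course was not steady, since the same limma fit gave 0.48 at 6 h (adjusted p 0.0198), then -0.12 (adjusted p 0.565), then 0.32 by 18 h (adjusted p 0.0956). At 6 h the libraries overlapped, and the call was lost without replicate 1 (0.42, adjusted p 0.113) or replicate 2 (0.55, adjusted p 0.119). The sign at 12 h turned to 0.07 without replicate 3, since the third Ikaros library stood at 12.13 and the other two at 12.61 and 12.66.

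Ccng1 (ENSMUSG00000020326; chromosome 11, 40748552 to 40755311, reverse strand) encodes cyclin G1, which brings a phosphatase to Mdm2. Its changes were small: all 36 libraries lay between 13.62 and 14.40. Ikaros cells held 13.77, 13.81 and 13.93 at 12 h against 14.02, 14.30 and 14.21 in control cells, and the lines did not overlap at 12, 18 or 24 h. The differences of -0.34, -0.46 and -0.30 at these times were called (limma, SE 0.11, adjusted p 0.0151, 0.00114 and 0.0225). The call at 24 h was lost without replicate 2 (adjusted p 0.158) or replicate 3 (adjusted p 0.124) and that at 18 h without replicate 2 (adjusted p 0.0743). The call at 12 h was also lost without replicate 2 (adjusted p 0.214) or replicate 3 (adjusted p 0.0516). Between the lines Ccng1 differed by 1.23-fold at 24 h, the smallest size among the 8 genes.

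Btg2 (ENSMUSG00000020423; chromosome 1, 134075170 to 134079120, reverse strand) encodes an antiproliferative protein that recruits the deadenylase that shortens mRNA tails. It rose in Ikaros cells from a low level, and against their own 0 h the rise was first called at 12 h (1.21, limma, adjusted p 0.00992). That call was lost without replicate 2 (adjusted p 0.125). Control libraries stood at 6.44, 5.09 and 5.21 at 24 h and Ikaros libraries at 9.19, 9.01 and 9.10, without overlap. The difference of 0.59 at 2 h was not called (limma, adjusted p 0.315). The difference grew from 1.76 through 2.97 and 3.14 to 3.52 over 6, 12, 18 and 24 h (limma, SE 0.38, adjusted p 0.000583, 3.07e-07, 6.26e-08 and 6.22e-09), which is 11.5-fold at 24 h. At 6 h Ikaros cells stood at -0.59 against their own 0 h (adjusted p 0.246) and control cells at -1.16 (adjusted p 0.0640), so the difference at 6 h came with lower control values. Btg2 was already higher at 0 h, by 1.19 (limma, adjusted p 0.0482), and this call was lost without replicate 2 (adjusted p 0.595) or replicate 3 (adjusted p 0.138). Its mean over the 36 libraries exceeded that of 5.27% of the genes, and its SE was the largest among the members.

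The members linked to cell death moved in opposite directions. Aen (ENSMUSG00000030609; chromosome 7, 78895854 to 78911209, forward strand), which encodes a nuclease that enhances apoptosis, fell step by step. Ikaros libraries stood at 13.19, 13.22 and 13.48 at the start, then at 12.58, 12.81 and 12.61 by 6 h, 12.12, 12.10 and 11.99 by 12 h, and 11.11, 11.49 and 11.32 by 24 h. Control libraries at 24 h stood at 13.43, 13.53 and 13.63, and from 2 h on the lines did not overlap. The difference of -0.34 at 2 h was called (limma, SE 0.11, adjusted p 0.0325), and it reached -0.79, -1.56, -2.07 and -2.22 at 6, 12, 18 and 24 h (adjusted p 3.4e-06, 1.42e-11, 2.08e-14 and 2.64e-15). The call at 2 h was lost without replicate 1, 2 or 3 (adjusted p 0.0818, 0.317 and 0.112). At 24 h Aen RNA was 4.66-fold lower in Ikaros cells, and 92.0% of all genes differed by less in size.

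Trp53inp1 (ENSMUSG00000028211; chromosome 4, 11156431 to 11174379, forward strand) encodes a stress-induced protein that works with p53 in the nucleus and in autophagy. It showed the widest change of the members. Ikaros libraries began at 11.15, 10.61 and 10.15, then held 12.82, 12.53 and 12.55 by 12 h, 14.91, 14.68 and 15.09 by 18 h, and 15.71, 15.07 and 15.35 by 24 h. Control libraries at 24 h held 9.52, 10.13 and 9.59, and the lines did not overlap from 6 h on. The difference of 1.34 at 6 h grew to 3.11, 5.34 and 5.63 at 12, 18 and 24 h (limma, SE 0.29, adjusted p 0.000746, 2.07e-09, 2.75e-14 and 5.22e-15). The last value was 49.7-fold, and 99.8% of all genes differed by less in size. From 0 to 6 h the Ikaros mean of Trp53inp1 shifted by 0.08 (limma, adjusted p 0.869) and the control mean by -0.76 (adjusted p 0.0997). The difference at 6 h thus came with lower control values and without a called rise in the Ikaros line. That rise was first called at 12 h (2.00, limma, adjusted p 3.52e-06). With only the groups compared in the fit, the call between the lines at 6 h was lost (adjusted p 0.0749).

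Zmat3 (ENSMUSG00000027663; chromosome 3, 32334792 to 32366014, reverse strand) encodes a zinc finger protein that binds RNA. It changed sides during the course. At 0 h every Ikaros library, at 12.81, 12.58 and 12.84, lay above every control library, at 12.04, 12.06 and 12.56. At 18 h the order was turned, with 12.07, 11.99 and 11.81 in Ikaros cells and 12.11, 12.35 and 12.48 in control cells. The difference at 18 h, -0.36, was not called (limma, adjusted p 0.125). It was -0.04 within batch 1, and it passed without replicate 1 (-0.51, adjusted p 0.0353). The differences of 0.52, 0.53 and 0.44 at 0, 2 and 12 h did not pass the threshold (limma, SE 0.20, adjusted p 0.115, 0.0626 and 0.0726), and that of -0.50 at 24 h did (adjusted p 0.0303). With a replicate block by culture batch the differences at 0, 2 and 12 h passed as well (limma, adjusted p 0.0427, 0.0231 and 0.0309). The call at 24 h, where the lines overlapped, was lost without replicate 2 (-0.55, adjusted p 0.102) or replicate 3 (-0.33, adjusted p 0.275). The change of the difference from 2 to 24 h was -1.02 (limma, SE 0.28, adjusted p 0.00368), and it was lost without replicate 3 (adjusted p 0.0650).

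Sesn1 (ENSMUSG00000038332; chromosome 10, 41809935 to 41908424, forward strand) encodes sestrin 1, which restrains the growth kinase mTORC1. Ikaros libraries began at 12.46, 12.18 and 11.95, then held 12.85, 12.88 and 13.10 by 12 h, 13.90, 13.79 and 14.09 by 18 h, and 14.47, 14.18 and 14.52 by 24 h. Control libraries stood at 12.04, 12.06 and 12.48 at 24 h, and the lines were apart at 2, 12, 18 and 24 h. The difference was 0.16, 0.36 and 0.26 at 0, 2 and 6 h, none of them called, and then 1.03, 1.98 and 2.20 (limma, SE 0.15, adjusted p 1.97e-06, 1.02e-11 and 7.8e-13). The value at 24 h was 4.59-fold. In the annotation Sesn1 was the only member whose span met another gene, 9930024M15Rik, with 0 shared exon bases.

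**Figure D1:**
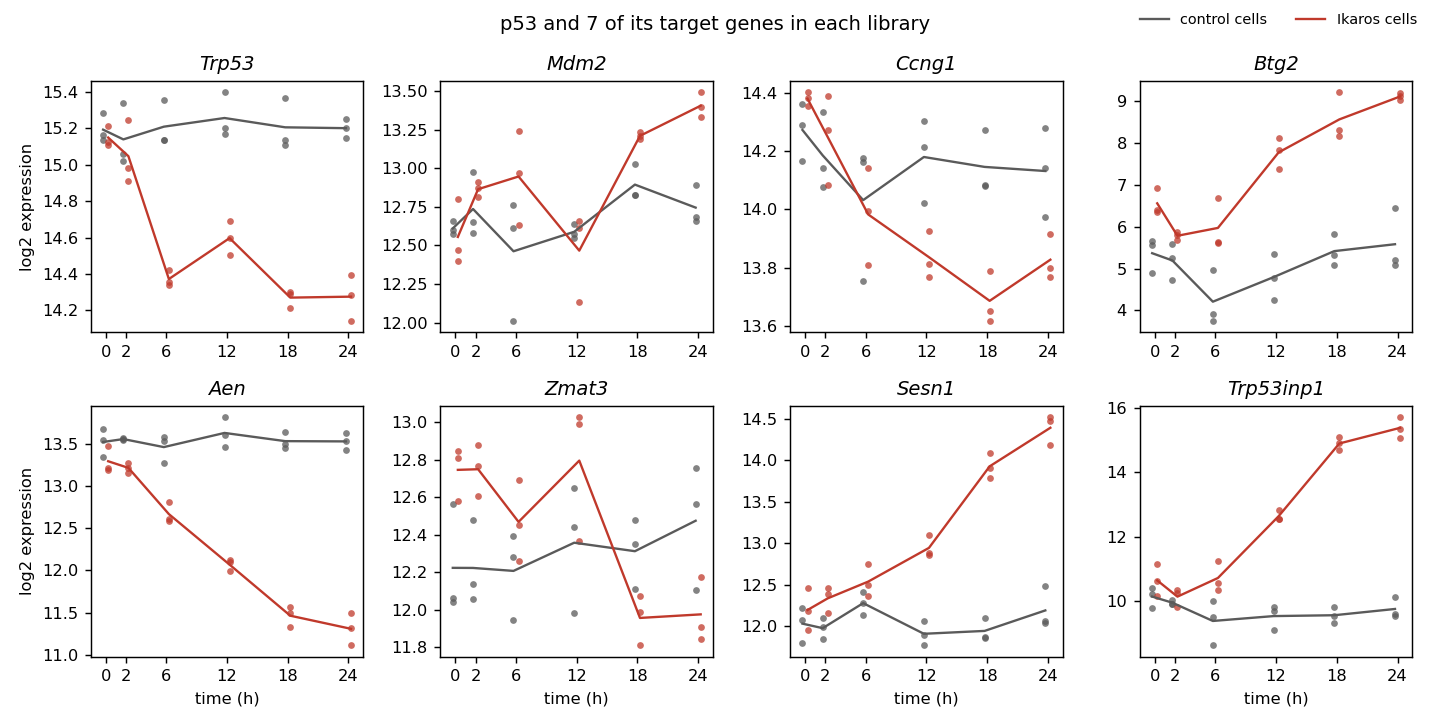
Log2 expression of the 8 genes against time in hours, with 1 point for each of the 3 libraries of a group and a line through the group means, control cells in grey and Ikaros cells in red. Each panel has its own vertical axis. At 24 h the Ikaros points of Trp53, Ccng1 and Aen lie below all control points, those of Mdm2, Btg2, Sesn1 and Trp53inp1 lie above them, and those of Zmat3 overlap them.

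Side by side, the members did not share a direction. At 0 h 1 of the 8 measured members was called (Btg2), where 8.33% of all genes were, and at 2 h 1 (Aen), where 19.1% of all genes were. At 6 h 5 were called (37.3% of all genes), with Trp53 and Aen lower and Mdm2, Trp53inp1 and Btg2 higher. At 12 h 6 were called (45.8% of all genes) and at 18 h 6 (58.2% of all genes), in both cases Sesn1, Trp53inp1 and Btg2 higher and Trp53, Ccng1 and Aen lower. At 24 h all 8 were called (62.9% of all genes). 4 of them were higher in Ikaros cells, namely Mdm2, Sesn1, Trp53inp1 and Btg2, where 31.0% of all genes were called higher. The other 4 were lower, namely Trp53, Ccng1, Zmat3 and Aen, where 31.9% of all genes were called lower. Since most genes of the table were also called at 24 h, the count of 8 says little about these genes in particular. Without replicates 2 or 3 the calls of Ccng1 and Zmat3 were lost.

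The sizes at 24 h were uneven among the members. Of all genes, 99.8%, 97.9%, 92.0% and 91.8% differed by less than Trp53inp1, Btg2, Aen and Sesn1. For Trp53, Mdm2, Zmat3 and Ccng1 the shares were 62.4%, 48.9%, 38.4% and 24.1%. The median size of the difference at 24 h was 1.56 over the 8 members and 0.68 over all genes, while at 0 h it was 0.20 and 0.18. The value of 1.56 lies between the sizes of Trp53 and Sesn1, with no member near it. The signed medians at 24 h were 0.18 and -0.01. Libraries of the lines did not overlap for 2 of the 8 members at 0 h (32.7% of all genes), for 8 at 18 h (64.5% of all genes) and for 7 at 24 h (71.0% of all genes).

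**Figure D2:**
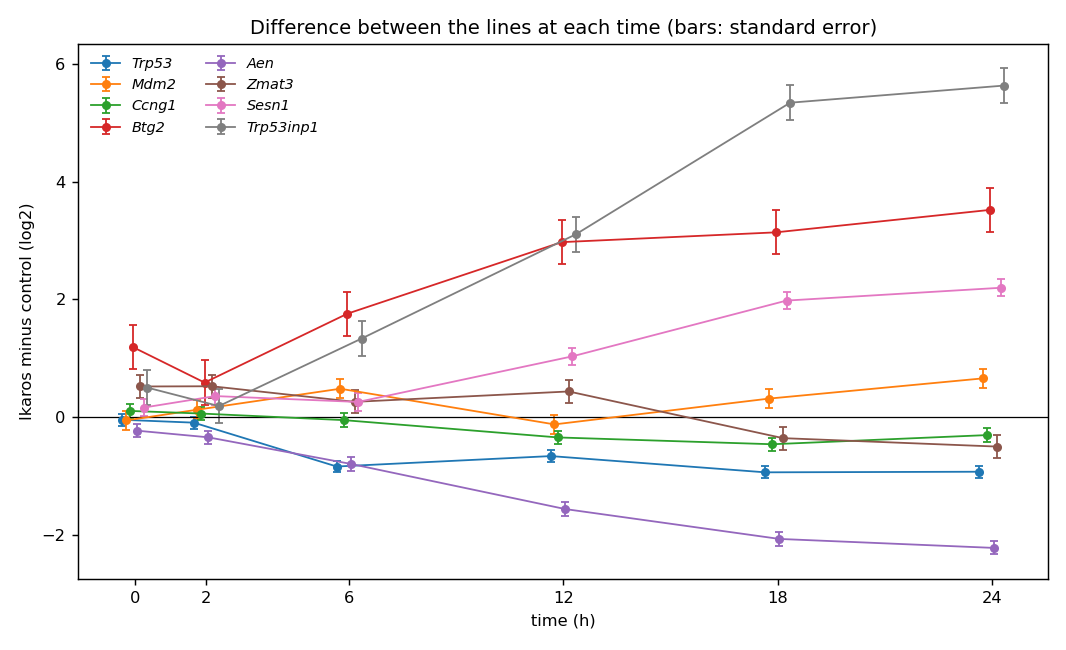
Ikaros minus control difference on the log2 scale for the 8 genes against time in hours, with bars of 1 standard error from limma and 3 libraries in each line and time. Points are shifted slightly sideways. The curves of Trp53inp1, Btg2 and Sesn1 rise to 5.63, 3.52 and 2.20 at 24 h, that of Aen falls to -2.22 and that of Trp53 stands at -0.93.

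The change of the difference was tested to separate what grew during the course from what set the lines apart from the start. Between 2 and 24 h, a comparison that uses no 0 h library, 6 of the 8 members changed (47.3% of all genes). It was -0.83 for Trp53, -1.88 for Aen and -1.02 for Zmat3, and 1.84 for Sesn1, 2.93 for Btg2 and 5.45 for Trp53inp1. Mdm2, at 0.53 (limma, adjusted p 0.0569), and Ccng1, at -0.37 (limma, adjusted p 0.0631), did not pass, and both passed under a replicate block by culture batch (adjusted p 0.0463 and 0.0422). The F test over the 5 changes from 0 h called all 8 members (59.8% of all genes), with adjusted p from 4.39e-12 for Trp53inp1 to 0.0239 for Mdm2, and 5 of them without replicate 2 or replicate 3.

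Each line was also compared with its own 0 h. In Ikaros cells no member was called at 2 h (19.2% of all genes), and 1 had an unadjusted p under 0.05. At 6 h 3 had fallen (32.8% of all genes), namely Trp53, Ccng1 and Aen, by -0.78, -0.40 and -0.63. At 12 h 6 were called (46.1% of all genes), with Sesn1, Trp53inp1 and Btg2 added as higher. The fall of Ccng1 at 6 h was lost without replicate 2 or 3 (limma, adjusted p 0.0908 and 0.146), and the rise of Btg2 at 12 h without replicate 2 (1.11, adjusted p 0.125). All 8 were called at 18 h (54.6% of all genes) and at 24 h (60.6% of all genes). At 24 h Trp53inp1 had risen by 4.75, Btg2 by 2.55, Sesn1 by 2.19 and Mdm2 by 0.85, while Aen had changed by -1.99, Trp53 by -0.87, Zmat3 by -0.77 and Ccng1 by -0.55. These comparisons share the 0 h libraries with one another.

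In control cells, which give the background of drug and culture, limma called none of the 8 members against 0 h. The share of all genes called was 0.047%, 5.1%, 0.0549%, 0.478% and 0.47%, in order from 2 to 24 h. Of the 40 values, 34 lay within 0.3 of 0 and 4 had an unadjusted p under 0.05. The widest was that of Btg2 at 6 h, -1.16 (limma, SE 0.38, adjusted p 0.0640), which passed with a replicate block (-1.21, adjusted p 0.0327). Trp53inp1 stood at -0.76 at 6 h (limma, SE 0.29, adjusted p 0.0997).

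Consecutive times of the Ikaros line were compared to see when members moved. Ccng1 was called in none of these steps from 2 h on (limma, adjusted p from 0.140 to 0.608). From 2 to 6 h 2 members changed (11.2% of all genes), Trp53 by -0.68 and Aen by -0.55. Between 6 and 12 h 4 changed (20.8% of all genes), Trp53inp1 by 1.92, Btg2 by 1.80, Aen by -0.60 and Mdm2 by -0.48, and without replicate 2 the changes of Btg2, Aen and Mdm2 lost their calls (limma, adjusted p 0.0850, 0.0660 and 0.177). That of Mdm2 was also lost without replicate 3 (-0.17, adjusted p 0.557), and the fall of Aen from 2 to 6 h without replicate 2 (adjusted p 0.0553). Between 12 and 18 h 6 changed (25.5% of all genes), which was the step with most calls among the members. In that step Trp53inp1 rose by 2.26, Sesn1 by 0.98 and Mdm2 by 0.74, and Zmat3, Aen and Trp53 changed by -0.84, -0.60 and -0.33. The last step of Trp53 was lost without replicate 1 or 2 (adjusted p 0.113 and 0.183) and that of Zmat3 without replicate 2 or 3 (adjusted p 0.109 and 0.0714). From 18 to 24 h limma called no member (5.77% of all genes), and 1 had an unadjusted p under 0.05. That one was Sesn1, at 0.46 (SE 0.15, adjusted p 0.0620).

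When the 12 groups were ordered by their mean, most neighbours in the order overlapped. The levels of Ccng1 and Zmat3 showed no gap between any of the 11 neighbouring pairs. Trp53 had gaps below the Ikaros 2 h group and below the Ikaros 12 h group, with Ikaros cells at 6, 18 and 24 h forming the lowest stretch. The Ikaros groups of 24, 18 and 12 h were each apart from the next for Sesn1, those of 18 and 12 h for Trp53inp1 and Btg2, and that of 24 h for Mdm2. For Aen the Ikaros groups of 2, 6 and 12 h were each apart from the one below, and those of 18 and 24 h overlapped.

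Other genes of the pathway were read from lists of p53 regulators and of further p53 targets grouped by role. Over the 34 other targets in the table, 10 were called higher and 13 lower at 24 h, or 67.6%, which is near the 62.9% of all genes. At 2 h, 2 of them were higher and 9 lower, where 9.18% and 9.88% of all genes were. Their median difference was -0.19 at 2 h and -0.08 at 24 h, against -0.01 over all genes at 24 h. Targets were called in both directions at each of these times.

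Among cell cycle targets, 2 of 7 measured genes were called higher at 24 h and 4 lower, where 31.0% and 31.9% of all genes were. Cdkn1a encodes the cyclin-dependent kinase inhibitor p21 and is the best known p53 target. At 0, 12 and 18 h Cdkn1a stood at -0.39, 0.13 and -0.19, none of them called (limma, adjusted p 0.201, 0.574 and 0.352). It was 0.54 higher in Ikaros cells at 2 h and 0.77 higher at 6 h, and it stood at -0.61 at 24 h (limma, SE 0.17, adjusted p 0.0295, 0.000957 and 0.0034). The calls at 2 and 6 h were lost without replicate 2 (adjusted p 0.361 and 0.0594), that at 2 h also without replicate 3 (adjusted p 0.0544). Gadd45a, a stress gene of growth arrest, was 2.51 higher in Ikaros cells at 24 h, and Sfn, which encodes the 14-3-3 sigma protein, was 0.34 higher (adjusted p 0.0420), a call lost without replicate 1 or 3 (adjusted p 0.204 and 0.293). Plk3, a polo-like kinase, stood at -3.81 and Ckap2, a spindle protein, at -0.79.

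Of 11 cell death targets, 2 were called higher at 24 h and 7 lower, where 31.0% and 31.9% of all genes were. Their median difference was -0.51, against -0.01 over all genes. Steap3, a metalloreductase, Pidd1, a death-domain adaptor, and Siva1 stood at -2.23, -1.99 and -1.59 on the log2 scale, and Bax, a pore-forming protein of mitochondria, at -0.51. Fas, the death receptor, was 2.86 higher. Bbc3, which encodes the BH3-only protein Puma, was lower at 2, 6, 12 and 18 h, at -0.91, -0.73, -0.47 and -0.38, and higher at 24 h, at 0.39 (limma, SE 0.16, adjusted p 0.0350). The last call was lost without replicate 1 (adjusted p 0.290) or replicate 2 (adjusted p 0.133), and those at 12 and 18 h without replicate 2 (adjusted p 0.234 and 0.413). The call at 18 h was also lost without replicate 1 (adjusted p 0.0760) and with a replicate block (adjusted p 0.0502). Pmaip1, Eda2r and Dram1 were not in the table used here.

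Repair and metabolism targets held 6 genes called higher and 2 called lower of 16 at 24 h, where 31.0% and 31.9% of all genes were, and without replicate 1 the number higher was 3. Rrm2b, a ribonucleotide reductase subunit, Dcxr, a xylulose reductase, and Gpx1, a glutathione peroxidase, were higher in Ikaros cells by 1.77, 1.40 and 1.09. Gls2, the glutaminase known as a p53 target, was far lower from 6 h on, at -3.49, -2.09, -3.95 and -2.88 at 6, 12, 18 and 24 h (limma, SE 0.34). Polk, a DNA polymerase that bypasses lesions, stood at -0.38.

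Regulators of p53 were called higher in 9 and lower in 7 of 25 at 24 h, near the 31.0% and 31.9% of all genes, and without replicate 1 the number lower was 4. Mdm4, the partner of Mdm2, was 0.71 higher at 18 h (limma, SE 0.19, adjusted p 0.00181), and its difference of 0.18 at 24 h was not called (adjusted p 0.407). Cdkn2a, whose Arf product restrains Mdm2, was 0.76 higher at 24 h (adjusted p 0.0164), a call lost without replicate 1 (adjusted p 0.120) or replicate 2 (adjusted p 0.223). Ppp1r13l, an inhibitor of p53 known as iASPP, and the damage kinases Chek1 and Atr stood at -2.93, -1.90 and -1.18. Trp53bp2, which encodes the p53 activator ASPP2, the ubiquitin ligase Rchy1 and the acetyltransferase Kat5 were higher by 1.55, 1.20 and 1.03.

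**Figure D3:**
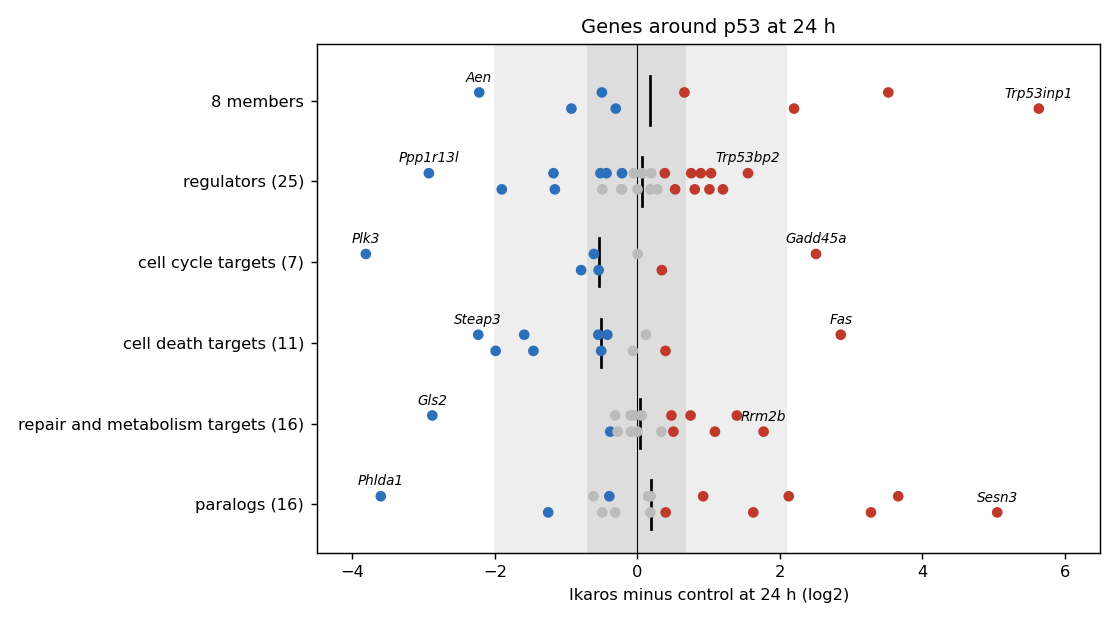
Ikaros minus control difference at 24 h on the log2 scale for the 8 genes and 5 lists of related genes, 1 point per gene, red where called higher, blue where called lower and grey where not called, with a black bar at the median of each row. The shaded bands hold the middle 50% and 90% of all 12762 genes, the latter from -2.0 to 2.1, and only the extremes of each row are named.

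Close relatives of the members were compared in the same way. Of 16 paralogs in the table, 7 were called higher and 3 lower at 24 h, where 31.0% and 31.9% of all genes were, and the number lower was 1 without replicate 2 and 5 without replicate 3. Sesn3 was 3.91 higher in Ikaros cells at 0 h already and 5.05 higher at 24 h. At 24 h its control libraries lay between 5.63 and 6.77 and its Ikaros libraries between 10.77 and 11.80. Sesn2 stood at 0.57, -0.56 and -0.31 at 0, 12 and 24 h (limma, adjusted p 0.0384, 0.00909 and 0.119). Its call at 0 h was lost without replicate 1, 2 or 3 (adjusted p 0.320, 0.182 and 0.104). That at 12 h was lost without replicate 1 or 2 (adjusted p 0.0790 and 0.0955). Ccng2, the relative of Ccng1, was 1.24 higher in Ikaros cells at 2 h and 3.28 higher at 24 h, and at 0 h its difference of 0.69 was not called (limma, adjusted p 0.0617). Trp53inp2 was 0.17 higher at 2 h (limma, adjusted p 0.823) and 3.66 higher at 24 h. Btg1 was 2.12 higher at 24 h and Btg3 stood at -1.25, a call lost without replicate 2 (adjusted p 0.0504), so that Btg2 shared its direction with the one and not with the other. Sesn3 and Ccng2 are known chiefly as targets of FoxO factors. Phlda1, the relative of Phlda3, stood at -3.60 and Isg20l2, a relative of Aen, at -0.39, a call lost without replicate 1 (adjusted p 0.122) or replicate 2 (adjusted p 0.304).

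**Figure D4:**
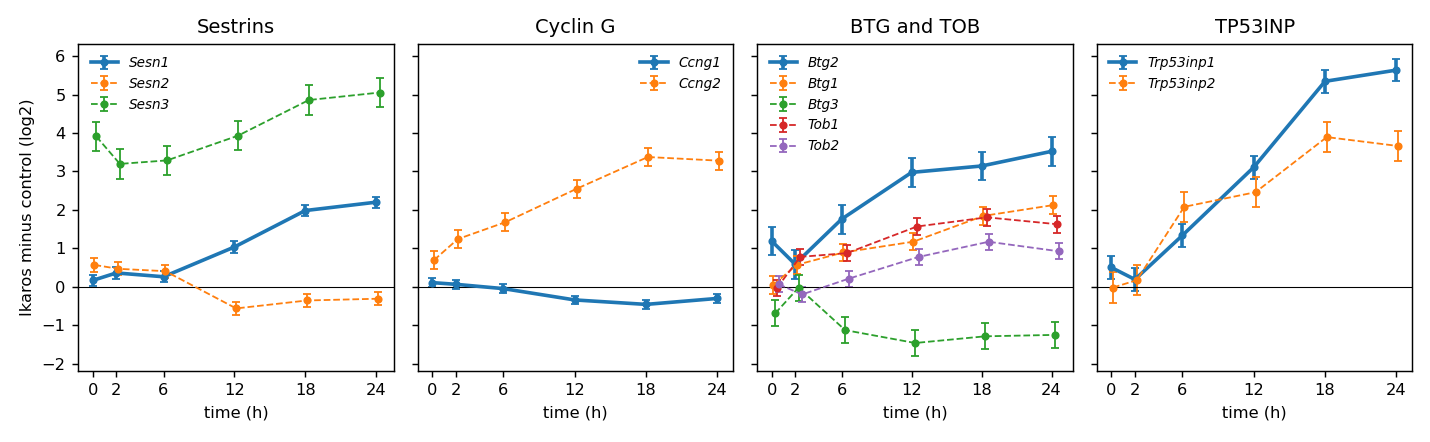
Ikaros minus control difference on the log2 scale against time in hours for 4 gene families, with bars of 1 standard error from limma. Solid lines are the members Sesn1, Ccng1, Btg2 and Trp53inp1, and dashed lines their relatives. Ccng2 stands at 3.28 at 24 h where Ccng1 stands at -0.30, and Sesn3 is 3.91 above control at 0 h.

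The genes whose pattern was most like each member were named by Pearson correlation over the 12 group means, which share the 0 h groups and the time course, so high values are common and carry no p. For Aen they were Grwd1, Fam203a and Atad3a, with r from 0.996 to 0.998, and for Trp53 Slc29a2, Slc5a6 and Xrcc6bp1, all at 0.987. Trp53inp1 was most like Zkscan17, Klhl24 and Tmem106b (r from 0.994 to 0.996) and Sesn1 most like Desi1, Brox and Trafd1 (0.991 to 0.994). Btg2 was closest to Flii, Akirin1 and Hsdl2 (0.973 to 0.981). The remaining members had looser neighbours, namely Arhgap15, Vps26a and Eqtn for Mdm2 (0.918 to 0.960), Txnrd3, Ccnd1 and Mrgpra1 for Ccng1 (0.947 to 0.950) and Atp8b4, Vcl and Clptm1 for Zmat3 (0.910 to 0.938). Over the 36 single libraries, 5 of these 24 names were again among the 3 closest.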

How the data were processed

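RNA was sequenced from 36 libraries of the B3 line. Per the methods and the submitters' processing notes, the authors trimmed the reads and used TopHat2 for alignment to mm10, with a single best position per fragment, and HTSeq for assignment to genes. Normalization by cqn took out GC content and gene length, and ComBat in its non-parametric form took out library preparation. The deposited values are on a log2 scale, as cqn gives them, shifted so that the lowest value of the table is 1. The file does not state the base, so levels are relative and folds assume base 2. No counts were used, so the depth each library reached is not known here, though the methods give an intended depth. Precision rests on 3 libraries per group. Adjustment before deposition may leave the standard errors too small, and the strand setting of the counting is not given in the sources used here.

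One limma 3.58.1 model in R 4.3.3 held a mean for each of the 12 groups. P-values are two-sided, with Benjamini-Hochberg adjustment across the 12762 genes. No test between groups is described for these data in the study's methods. Both lines carry the same batch numbers in the labels, so the numbers pair the cultures. After group means were subtracted, r between paired libraries lay from -0.06 to 0.51 over 18 pairs, 12 of them above 0.1. Alternatives were a replicate block by culture batch, also with the 0 h cultures kept apart, a filter at the 25th percentile of mean expression (9571 genes kept), quantile normalization, median centring, trended and robust moderation, only the groups compared, and each replicate left out.

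The members, gene lists and tests were chosen with earlier results of these data known. Named were Ikzf1, all members, Mdm4, Cdkn1a, Cdkn2a, Bax, Bbc3, Pmaip1, Sesn2, Sesn3, Ccng2 and Btg1 where measured, up to 3 largest called rises and falls per list at 24 h, and the 3 genes most like each member. Positions are from GENCODE mouse release M21 on GRCm38, the build of mm10, and promoter sequences from RefSeq on GRCm38.p6.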

Additional observations from a re-analysis of the deposited data

Results flagged for a closer look

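Each value here is a change of the Ikaros minus control difference between times, on the log2 scale, from limma with adjusted p over all genes, and it was picked out because that change itself passed the threshold. Changes from 0 h share the 0 h libraries. For Trp53 the change from 0 h was -0.79, -0.62, -0.89 and -0.88 at 6, 12, 18 and 24 h (SE 0.14), and that from 2 to 24 h was -0.83. For Aen it was -0.57, -1.33, -1.84 and -1.99 at these times (SE 0.16), and -1.88 from 2 to 24 h. At 6 h the change of Aen was lost without replicate 1, 2 or 3 (adjusted p 0.0638, 0.141 and 0.119), and at 12 h that of Trp53 without replicate 1 or 2 (adjusted p 0.0519 and 0.0548).

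Trp53inp1 changed by 2.61, 4.84 and 5.13 from 0 h to 12, 18 and 24 h (SE 0.41) and by 5.45 from 2 to 24 h. Sesn1 changed by 0.87, 1.82 and 2.03 over these times (SE 0.21) and by 1.84 from 2 to 24 h, and its call at 12 h was lost without replicate 2 (adjusted p 0.0880). Btg2 changed by 1.79, 1.95 and 2.33 (SE 0.53) and by 2.93 from 2 to 24 h. Its calls at 12 and 18 h were lost without replicate 3 (adjusted p 0.0672 and 0.0703), that at 12 h also without replicate 2 (adjusted p 0.170).

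The smaller changes lost their calls more often when a replicate was left out, in fits with fewer libraries. A lost call did not always come with a smaller value. The change of Ccng1 from 0 to 24 h stayed between -0.42 and -0.40 over the alternatives. Mdm2 changed by 0.72 from 0 to 24 h (SE 0.23, adjusted p 0.0110). Without replicate 1 or 2 that call was lost (adjusted p 0.0694 and 0.0814). Ccng1 changed by -0.45, -0.57 and -0.41 from 0 h to 12, 18 and 24 h (SE 0.16). The values of Ccng1 at 12 and 24 h lost their calls without any one of the replicates, with adjusted p from 0.0764 to 0.283, and that at 18 h without replicate 2 (adjusted p 0.124). Zmat3 changed by -0.88 and -1.02 from 0 h to 18 and 24 h and by -1.02 from 2 to 24 h (SE 0.28), and its call at 18 h was lost without replicate 2 or 3 (adjusted p 0.111 and 0.0682). With 3 libraries a group, single libraries were not tested for standing apart.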

How the results depend on the processing

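Across 10 alternatives, 1628 of 1745 gene values kept their direction and their side of the threshold, 96 lost a call, 17 gained one and 4 changed sign. The most calls, 36, were lost without replicate 2. Over all genes the fewest calls at 0, 2, 12, 18 and 24 h also came without replicate 2. Replicate 2 is batch 2 at 0 h and batch 3 later. The sign changes were in differences near 0 that were not called: Mdm2 ranged from -0.20 to 0.047 at 0 h (0.047 without replicate 1) and from -0.23 to 0.072 at 12 h (0.072 without replicate 3), and Ccng1 from -0.27 to 0.10 at 6 h (0.017 and 0.10 without replicates 2 and 3) when each replicate was left out. Under a replicate block by culture batch the members called were 2 at 0 h and 2 at 2 h (2 and 3 with the 0 h cultures apart), in place of 1 and 1, and 1 in place of 0 in control cells at 6 h. Beside these and the paired values given with Zmat3, Mdm2, Ccng1, Btg2 and Bbc3, the block changed no other call among the values reported, and with the 0 h cultures apart it added Sesn1 at 2 h (adjusted p 0.0216).

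At 0 h the filter, which dropped Btg2, median centring and trended moderation each left 0 members called. The filter gave 1 member in place of 0 between 18 and 24 h, 1 cell death target higher in place of 2 and 1 repair target lower in place of 2. Quantile normalization gave 1 member in place of 0 in control cells at 6 h. With only the groups compared, members called were 0 at 2 h and 3 at 6 h, 1 for the change from 0 to 6 h, 0 for the Ikaros step from 2 to 6 h and 1 for that from 6 to 12 h, with 1 cell cycle target and 1 cell death target higher and 5 paralogs lower. Over single libraries 5 of 24 most alike genes recurred.

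When each replicate was left out, members called ranged from 0 to 1 at 0 h, were 0 at 2 h and 1 for the change from 0 to 6 h, and ranged from 2 to 4 for the change from 0 to 12 h (6 with all). They ranged from 1 to 2 and from 1 to 5 for the Ikaros steps from 2 to 6 h and from 6 to 12 h, and from 5 to 6 for the F test. Lower regulators ranged from 4 to 7, higher cell cycle and cell death targets from 1 to 2 each, higher repair targets from 3 to 6 and lower paralogs from 1 to 5. Fewer libraries entered these fits. The other causes were not tested. Over all genes the number called ranged from 318 to 1497 around 1063 at 0 h and from 804 to 3135 around 2432 at 2 h. It ranged from 2150 to 5557 around 4759 at 6 h and from 3769 to 6545 around 5850 at 12 h. At 18 and 24 h it ranged from 5432 to 7998 around 7423 and from 6248 to 8495 around 8024. The lowest number came without replicate 2, except at 6 h, where it came with only the groups compared. The depth reached is not known here, and 3 libraries per group limit the precision.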
